A study of Mus musculus with 16 samples.

Results

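Potassium channel subunits were examined by RNA sequencing in the cerebral cortex of mice with a mutation of Aifm1 and of wild-type littermates. Members were all rows of the count table whose Ensembl identifier is a protein-coding gene with a symbol that starts with Kcn, further letters and a digit, which gave 93 of 55573 rows. They comprised 40 voltage-gated pore-forming or silent subunits, 12 auxiliary subunits of voltage-gated channels, 15 inward-rectifier, 14 two-pore, 9 calcium-activated and 3 sodium- or pH-activated genes. A further 5 symbols fitted the pattern but are not protein-coding (Kcnmb4os1, Kcnd3os, Kcnmb4os2, Kcnab3os and Kcnq1ot1) and were left out. With edgeR, no member passed an adjusted p of 0.05 in either mutant line. Of all genes tested, 0 of 18383 passed in the knock-in line (Aifm1-KI) and 3 of 17969 in the Harlequin line (Hq-mut).

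The 16 libraries form 4 groups of 4. Aifm1-KI carries a deletion of arginine 200 of the Aifm1 protein, which gene counts do not show, and Aifm1-WT are its littermates. Hq-mut is the Harlequin Aifm1 mutant, from the stock B6CBACa Aw-J/A-Aifm1Hq/J, and Hq-WT are its littermates. The labels give C57BL/6 as the strain of every library, an age of around postnatal day 180 and no treatment. Nothing in the labels ties each library to its own animal, so the p-values rest on a spread that may be technical. The lines differ in stock and possibly in handling, and these cannot be told apart from each other in any comparison across lines.

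Potassium channels set the resting potential and end the action potential. Voltage-gated channels open on depolarisation and shape spike width and firing rate, and their auxiliary subunits alter gating or trafficking. Inward rectifiers and two-pore channels pass current near rest and, in astrocytes, help to clear extracellular potassium. Calcium-activated channels open as calcium enters during firing and slow the next spikes.

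Levels are CPM, which are counts set to 1 library size by TMM factors over all libraries, from total counts of 10671580 to 32551594 a library. Aifm1 itself was at 23.1, 25.8, 23.5 and 23.4 CPM in Hq-WT and at 3.77, 2.22, 3.28 and 4.01 CPM in Hq-mut, with no overlap (log2 fold change -2.89, edgeR adjusted p = 0.00101 in the paired fit). In Aifm1-KI it was at 21.7 to 25.8 CPM and in Aifm1-WT at 21.5 to 23.4 CPM. Some libraries stood apart in markers of tissue next to cortex. The summed level of 10 striatum markers was 641 CPM in Aifm1-KI 2, 591 CPM in Aifm1-KI 4 and 856 CPM in Hq-mut 3, and 227 to 367 CPM in the other 13 libraries. The summed level of 10 choroid plexus markers was 5558 CPM in Hq-WT 2, 2907 CPM in Aifm1-KI 2, 389 CPM in Aifm1-WT 4 and 382.5 CPM in Hq-mut 2, against 7.0 to 135 CPM elsewhere. The sum of 8 liver transcripts was 249.7 CPM in Aifm1-WT 1 and 286 CPM in Aifm1-WT 2, against 0.8 to 28.3 CPM elsewhere. No marker of either list was at 0 in every library.

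The promoters of Kcnj13 and Kcne2 are shown because these members were high in the same libraries. Kcnj13 encodes the inward rectifier Kir7.1 and Kcne2 encodes a small membrane-spanning beta subunit, and both are known in ion-transporting epithelia. The sequences are the 250 bases before the RefSeq transcription start on GRCm38.p6, written 5′ to 3′ on the strand of the gene with each CG dinucleotide in capitals. Kcnj13 is at chr1:87394730-87394979 on the minus strand and Kcne2 at chr16:92292139-92292388 on the plus strand.
Kcnj13: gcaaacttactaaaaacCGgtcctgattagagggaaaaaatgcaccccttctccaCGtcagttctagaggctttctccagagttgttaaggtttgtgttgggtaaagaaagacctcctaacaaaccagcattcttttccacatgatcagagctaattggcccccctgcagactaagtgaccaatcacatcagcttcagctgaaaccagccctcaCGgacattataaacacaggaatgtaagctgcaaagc
Kcne2: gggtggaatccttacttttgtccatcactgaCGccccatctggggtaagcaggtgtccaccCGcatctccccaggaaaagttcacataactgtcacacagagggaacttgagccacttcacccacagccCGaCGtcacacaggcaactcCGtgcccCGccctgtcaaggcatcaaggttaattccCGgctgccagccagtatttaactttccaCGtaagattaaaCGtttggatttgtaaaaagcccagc
The Kcnj13 window holds 3 CG dinucleotides and the Kcne2 window 9, against a median of 6 over 27018 windows, 1 a gene. The motif TATAAA, searched on both strands, occurs once in the Kcnj13 window, not in the Kcne2 window, and in 13.0% of all windows. The motif GGGCGG, searched likewise, occurs once in the Kcne2 window, not in the Kcnj13 window, and in 32.9% of all windows. These matches are a description of the letters. Windows were found for only 68 of the 93 members, so no comparison of the members with other genes is reported here.

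Kcnj13 was at 7.45 CPM in Aifm1-KI 2 and 8.42 CPM in Hq-WT 2, at 1.47 CPM in Aifm1-WT 4, and at 0.159 to 0.618 CPM in the other 13 libraries. Kcne2 was at 16.8 CPM in Aifm1-KI 2, 7.45 CPM in Hq-WT 2 and 3.56 CPM in Aifm1-WT 4, and at most 0.874 CPM elsewhere. The 3 libraries with the highest choroid plexus sums were thus the 3 highest for both genes. Hq-mut 2, with nearly the same sum as Aifm1-WT 4, had 0.874 CPM of Kcne2 and 0.159 CPM of Kcnj13. The log2 fold change of Kcne2 in Aifm1-KI was 2.09 over all libraries, 3.88 without Aifm1-WT 4 and -1.45 without Aifm1-KI 2, and none of these passed the test. Part of the Kcnj13 exons, 623 bases, lies under exons of Gigyf2 on the opposite strand. Without a stated strand setting, reads from the overlapping genes cannot be told apart.

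**Figure D1:**
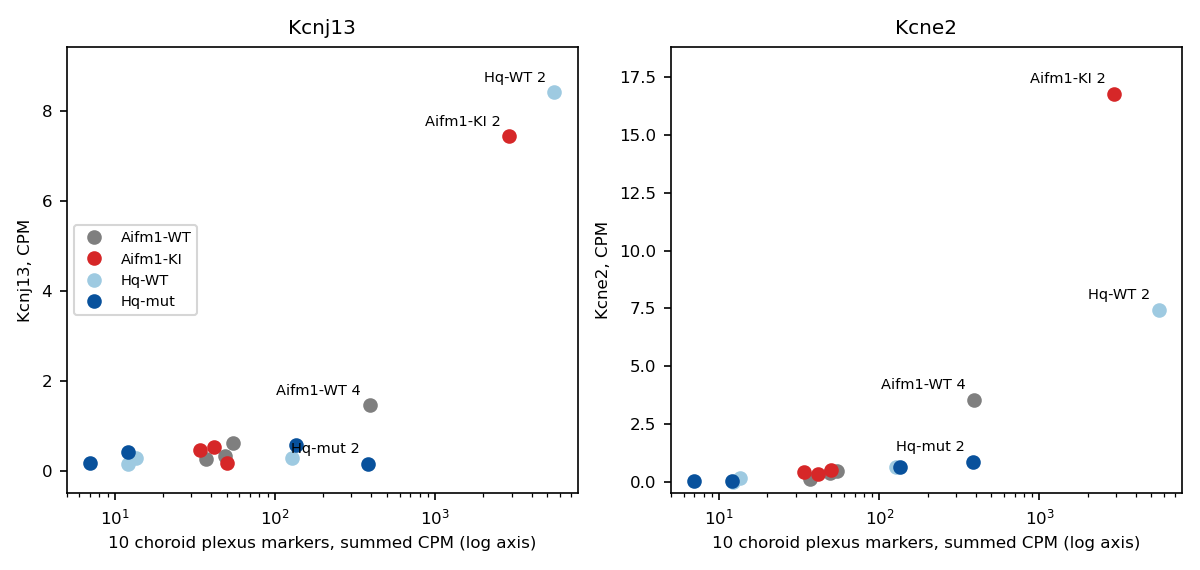
Kcnj13 (left) and Kcne2 (right) in CPM against the summed CPM of 10 choroid plexus markers on a log axis, 1 point a library, coloured by group. Both genes are highest in Aifm1-KI 2 and Hq-WT 2, and Hq-mut 2 stays low at a sum of 382.5 CPM.

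To compare levels between genes, CPM were divided by the length of all annotated exons in kilobases. Gene length here is the union of exons, so a gene that uses a short transcript is understated. By this measure, 10 members held 41.6% and 40 members held 90.7% of the summed level. Of the 93 members, 73 had a mean of at least 1 CPM and 56 a mean of at least 10 CPM, and all had a count in at least 1 library.

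Pore-forming and silent voltage-gated subunits together made up 46.9% ± 1.81 (SD, n = 16) of the summed level per kilobase. Among them were Kcnf1 at 41.5 CPM per kilobase, a subunit that forms no channel alone, Kcna2 at 37.5, a low-threshold Kv1 channel of axons, and Kcnh3 at 28.9, a neuronal ELK channel. The Kcna2 level per kilobase was 1.82 to 2.76 times that of Kcna1, another Kv1 pore, over the libraries, with means of 2.601 ± 0.14 (SD, n = 4) in Aifm1-WT, 2.61 ± 0.15 in Aifm1-KI, 2.15 ± 0.17 in Hq-WT and 2.18 ± 0.41 in Hq-mut.

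Auxiliary subunits made up 18.9% ± 1.40 (SD, n = 16), led by the highest member of all, Kcnab2, at 65.6 CPM per kilobase. Kcnab2 encodes a cytosolic beta subunit of Kv1 channels. Kcnip3 at 42.9 and Kcnip2 at 37.8 CPM per kilobase encode calcium-binding partners of the Kv4 channels that carry A-type current. Among the pores they bind, Kcnd2 was at 1.16 to 2.45 times the level of Kcnd3 per kilobase.

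Inward rectifiers made up 18.8% ± 0.72 (SD, n = 16). Kcnj4 was at 48.6 CPM per kilobase, the astrocytic Kir4.1 gene Kcnj10 at 46.9 and the G-protein-gated Kcnj9 at 44.0. Kcnj9 and Kcnj10 are neighbours on chromosome 1, 11891 bases apart. The G-protein-gated subunits were unequal, with Kcnj3 at 26.0 and Kcnj6 at 4.07 CPM per kilobase.

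Two-pore channels made up 8.54% ± 0.53, calcium-activated channels 4.35% ± 0.21 and sodium- or pH-activated channels 2.51% ± 0.31 (SD, n = 16 for each). Their highest members were the leak channel Kcnk1 at 40.7 CPM per kilobase, the BK pore gene Kcnma1 at 26.9 and the sodium-activated Kcnt1 at 18.6. Among calcium-activated genes the neuronal BK beta subunit Kcnmb4 was at 5.51, and the small-conductance channels Kcnn2, Kcnn1 and Kcnn3 were at 5.41, 4.46 and 2.86 CPM per kilobase.

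**Figure D2:**
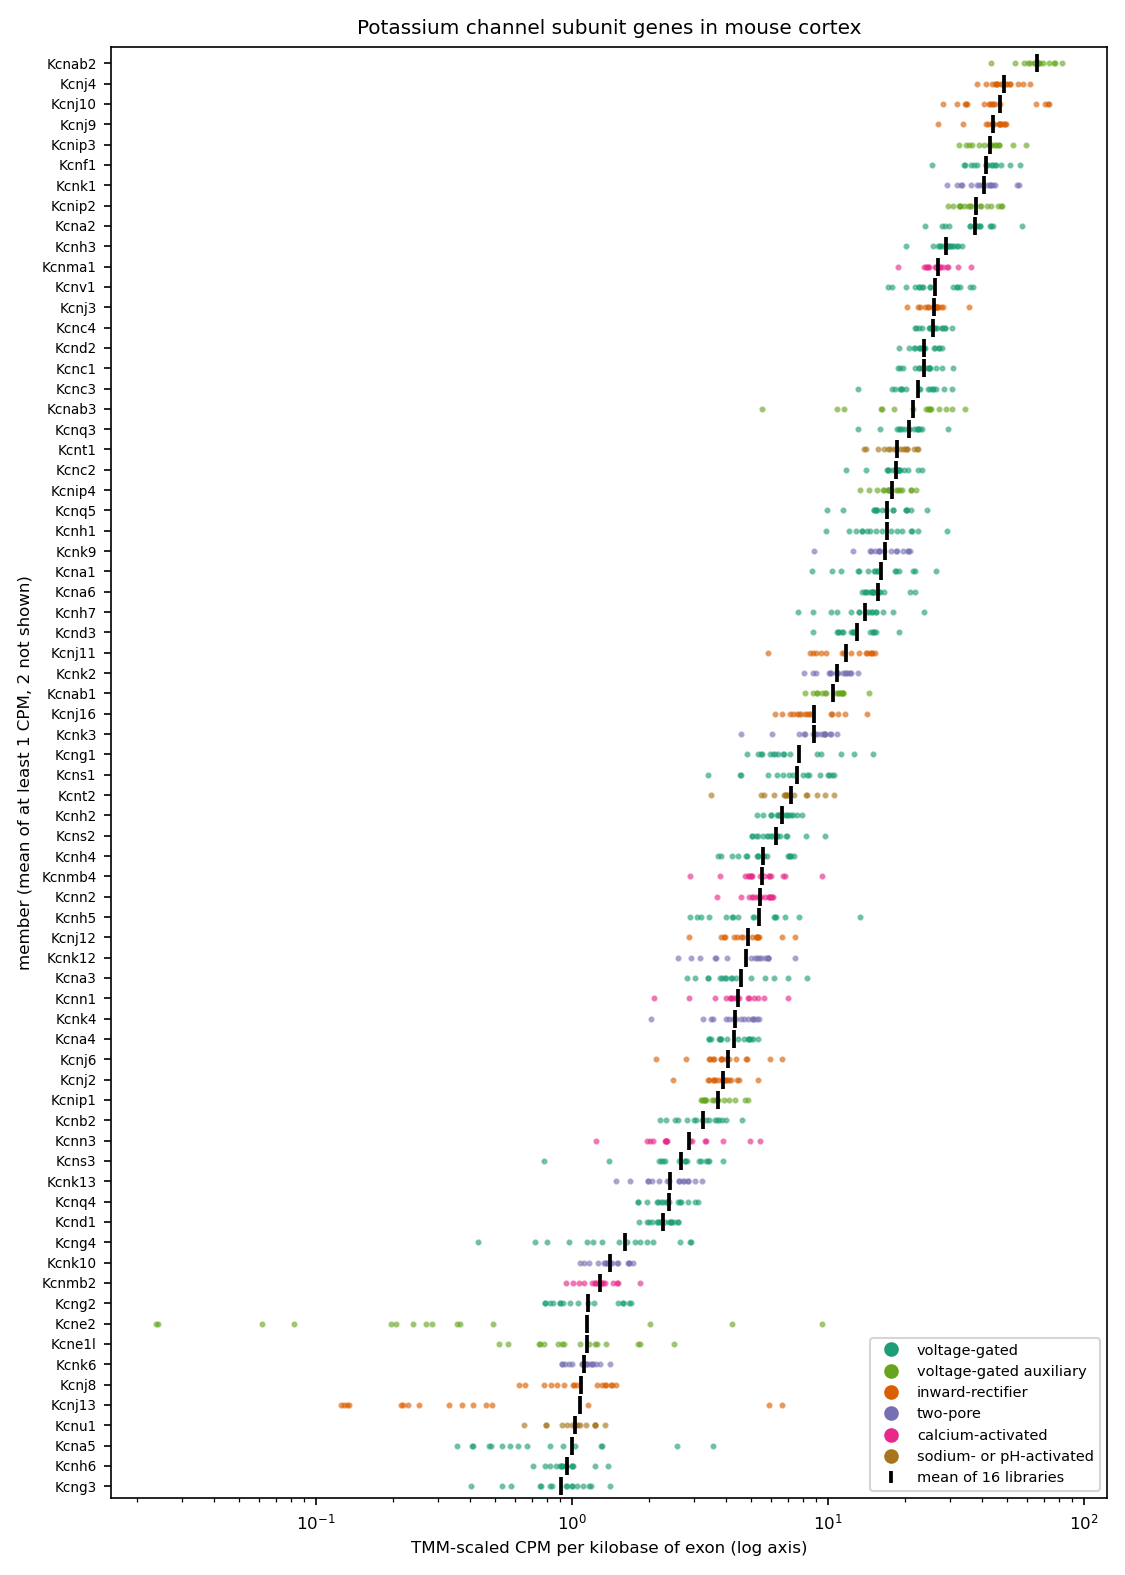
CPM per kilobase of exon on a log axis for 71 of the 73 members with a mean of at least 1 CPM, coloured by family, with 1 point a library and a bar at the mean of 16 libraries. Values of 0 are not drawn, and Kcne2, Kcnj13 and Kcna5 have the points that lie farthest above their means.

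Within each line, the sums of mutant and wild-type libraries overlapped for all 6 families. In CPM per kilobase, the voltage-gated sum was 490 ± 12.7 in Aifm1-WT, 469 ± 44.8 in Aifm1-KI, 508 ± 39.1 in Hq-WT and 548 ± 74.1 in Hq-mut (SD, n = 4). The inward-rectifier sum was 198 ± 5.36, 180 ± 15.1, 209 ± 8.15 and 219 ± 18.4 in the same order. The sum over all families was lowest in Aifm1-KI 2, at 881, and Aifm1-KI 4, at 952, and highest in Hq-mut 4, at 1276. Hq-mut 2 had the lowest voltage-gated share, 42.3%, and the highest auxiliary share, 22.9%. Family sums are given without a test. In bulk tissue, fewer cells of a type and less RNA per cell cannot be told apart.

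**Figure D3:**
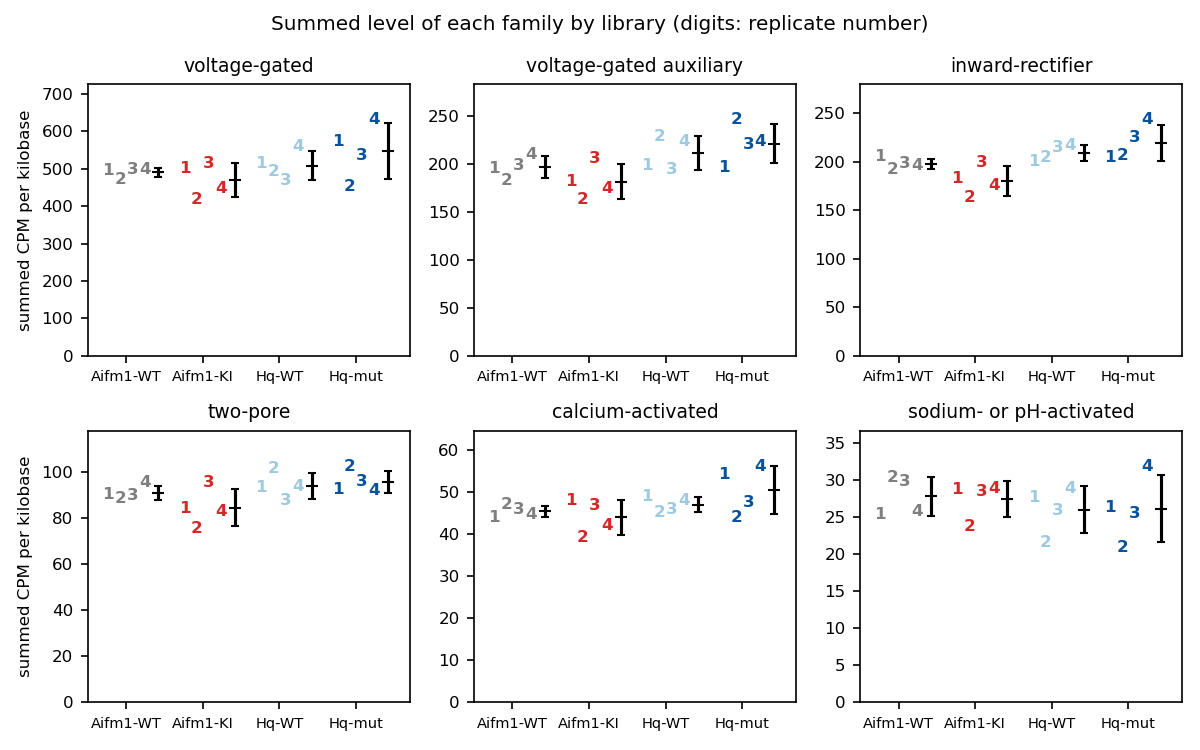
Summed CPM per kilobase of exon of each family by group, where digits mark the replicate number of each library and the bar is the mean ± SD of 4 libraries. Aifm1-KI 2 has the lowest sum in 5 of the 6 families, and Hq-mut 4 has the highest voltage-gated sum.

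The first comparison asked which members differ between Aifm1-KI and its littermates. With edgeR's quasi-likelihood test, 0 of the 80 members that passed the filter on low counts had an adjusted p under 0.05, as did 0% of all 18383 genes. DESeq2 called 1 member, Kcna5, among 82 genes called in all, and limma-voom called 0 of all genes. At an unadjusted p under 0.05 there were 18 of 80 members, or 22.5%, against 11.4% of all genes. Of these, 12 were higher and 6 lower in Aifm1-KI. The groups did not overlap for 4 members, 5% of 80, against 4.87% of all genes. The median log2 fold change was -0.03 over the 80 members and 0.01 over all genes.

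Kcna5 encodes the Kv1.5 channel, known in vessels and glia, and lies at chr6:126532551-126535412. It was at 1.76, 1.53, 1.64 and 1.91 CPM in Aifm1-WT and at 2.64, 10.2, 2.93 and 7.37 CPM in Aifm1-KI. The groups did not overlap, and Aifm1-KI 2 and 4 were far above the other knock-in libraries. The fitted log2 fold change of 1.81 (SE 0.41) had an edgeR adjusted p of 0.368. It was 0.71 without Aifm1-KI 2 and 4 and 0.26 with the striatum marker level as a covariate. DESeq2 gave 1.78 with an adjusted p of 0.0124. Striatum markers were themselves higher in Aifm1-KI, so the covariate and the genotype cannot be fully told apart.

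Other members had the same pair of libraries at the top. Kcng1, a silent modifier, was at 24.8, 28.7, 24.9 and 30.0 CPM in Aifm1-WT and at 32.0, 67.5, 24.1 and 57.1 CPM in Aifm1-KI. Kcnn3, a small-conductance calcium-activated channel, was at 24.6, 35.0, 30.2 and 24.4 CPM in Aifm1-WT and at 34.5, 57.0, 24.5 and 51.9 CPM in Aifm1-KI. Aifm1-KI 2 and 4 were above every wild type for both genes, and Aifm1-KI 3 was not. Without them the log2 fold changes went from 0.76 to 0.07 for Kcng1 and from 0.58 to 0.07 for Kcnn3. Kcnip2, the Kv4 partner that is enriched in striatum, was at 113, 107, 114 and 102 CPM in Aifm1-WT and at 118, 145, 114 and 164 CPM in Aifm1-KI. Its groups did not overlap, but only narrowly, with 113.8 CPM in Aifm1-KI 3 against 113.7 CPM in Aifm1-WT 3. Its log2 fold change was 0.32 (SE 0.11), or 0.10 without Aifm1-KI 2 and 4. Kcnh4 and Kcnab1, also taken as enriched in striatum, went the other way in Aifm1-KI 2 and 4. Kcnh4 was there at 0.53 and 0.79 times its Aifm1-WT mean, and Kcnab1 at 0.93 and 0.83 times. Kcnh4 was also low in Aifm1-KI 1, at 0.67 times its Aifm1-WT mean, and was at 0.996 times in Aifm1-KI 3. The lower level of Kcnh4 was thus not confined to Aifm1-KI 2 and 4. Kcnab1 was above its Aifm1-WT mean in Aifm1-KI 1 and 3.

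In the other direction, Kcna2 was at 447, 427, 467 and 450 CPM in Aifm1-WT and at 460, 284, 510 and 332 CPM in Aifm1-KI. Aifm1-KI 2 and 4 were below every wild type, and Aifm1-KI 1 and 3 were above most or all of them. The same libraries were lowest for Kcns1, a silent modifier, with 9.23 and 12.3 CPM against 18.2 to 25.2 CPM in Aifm1-WT, and for Kcnmb4, with 9.64 and 12.7 CPM against at least 16.3 CPM. Their log2 fold changes were -0.56 (SE 0.24) and -0.45 (SE 0.17), and -0.19 and -0.17 without the pair. Of the 6 tested Kv1 members, which include Kcna2, 0 were lower at an unadjusted p under 0.05 with edgeR.

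For Kcna4, an A-type Kv1 channel, the estimate depended less on this pair. Kcna4 was at 18.2, 17.0, 16.6 and 18.2 CPM in Aifm1-WT and at 19.6, 24.6, 21.5 and 18.5 CPM in Aifm1-KI. Its groups did not overlap by a narrow margin, and its log2 fold change was 0.28 (SE 0.09), or 0.24 without the pair. Kcnd3, a Kv4 pore, shrank more, from 0.36 (SE 0.11) to 0.21. Kcnh3 was the only member with every Aifm1-KI library below every Aifm1-WT library, at 148, 116, 170 and 158 against 175, 175, 184 and 179 CPM. Its log2 fold change of -0.25 (SE 0.10) was -0.15 without the pair.

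Over the 80 members, the median size of the log2 fold change was 0.21 with all libraries and 0.12 without Aifm1-KI 2 and 4. The members at an unadjusted p under 0.05 numbered 10 without the pair, 12.5% against 6.19% of all genes, and 4 of the 18 were among them. With the striatum covariate there were 13, 16.2% against 6.17% of all genes, of which 1 was among the 18. Single knock-in libraries also differed from each other. In Aifm1-KI 2, 13 of 80 members were more than 1.5 times the Aifm1-WT mean and 24 were lower by more than that factor. In Aifm1-KI 4 these counts were 7 and 6, and in Aifm1-KI 1 and 3 they were 3 and 4. No such count was made over all genes, so these describe the libraries and not a trait of the members. All 10 striatum markers were on the higher side in Aifm1-KI, 9 of them at an unadjusted p under 0.05 and 0 called with edgeR. The oligodendrocyte marker sum was 1936 and 2826 CPM in Aifm1-KI 2 and 4 against 3640 to 4970 CPM in Aifm1-WT. All 10 excitatory neuron markers were on the lower side in Aifm1-KI, 4 of them at an unadjusted p under 0.05 and 0 called with edgeR. Their sum was 5178 to 6762 CPM in Aifm1-KI and 6902 to 7512 CPM in Aifm1-WT, without overlap, as for Kcnh3. The part of these cell types in the members' values was not tested beyond the covariate, which is itself higher in Aifm1-KI.

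**Figure D4:**
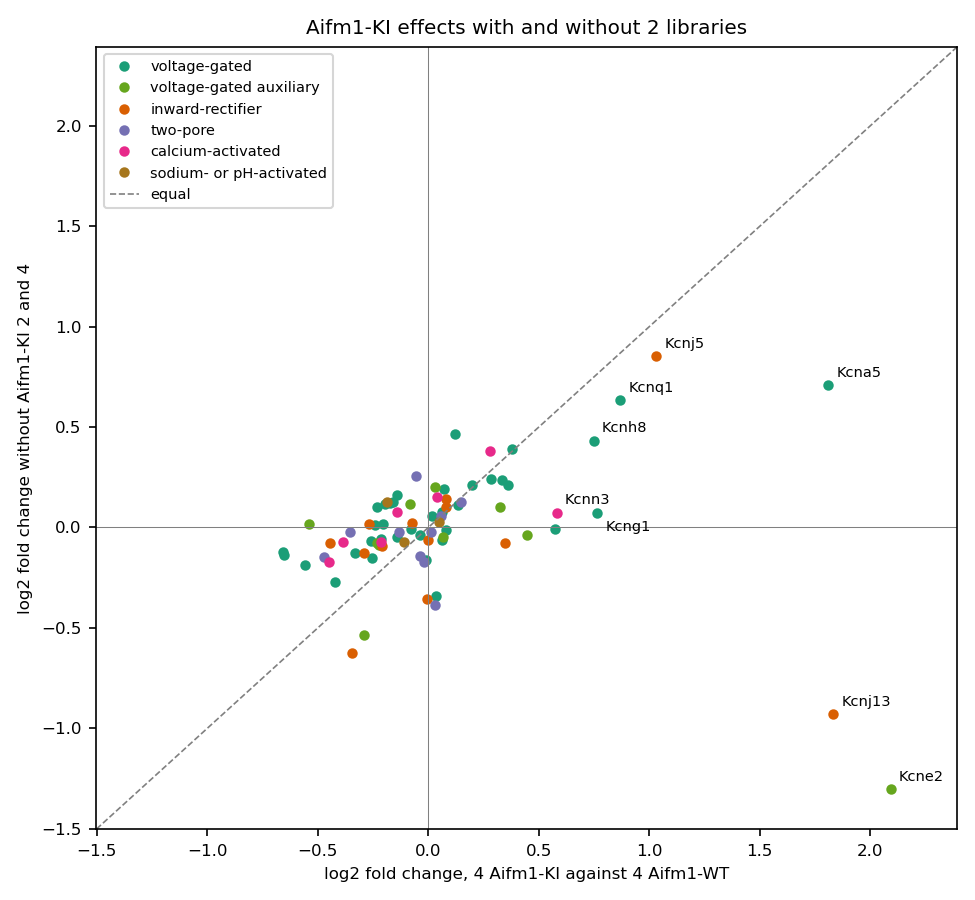
Log2 fold changes of members in Aifm1-KI against Aifm1-WT over all 8 libraries (x axis) and without Aifm1-KI 2 and 4 (y axis), 1 point a member, coloured by family, with the dashed line at equality. Kcng1 and Kcnn3 are at 0.07 on the y axis, Kcna5 is at 1.81 and 0.71, and Kcne2 and Kcnj13 change sign.

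The second comparison, between Hq-mut and Hq-WT, paired libraries by replicate number. In edgeR's paired fit 0 of 77 tested members were called, against 0.0167% of 17969 genes, which is 3 genes. DESeq2 and limma-voom called 0 members too, among 33 and 3 genes called in all. At an unadjusted p under 0.05 there were 10 members, 13% of 77, against 7.97% of all genes. Members that differed in the same direction in all 4 pairs numbered 11, or 14.3%, against 18.7% of all genes. The median log2 fold change was 0.04 over the 77 members and 0.01 over all genes. Of 36 tested voltage-gated members, 26 were higher and 10 lower, and of 10 auxiliary members 4 were higher and 6 lower. Of all 17969 genes, 9277 were higher and 8692 lower. These counts of direction are not a test, as the members share the same libraries.

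Kcnmb1 encodes the BK beta subunit known from smooth muscle and lies within the span of Kcnip1. It is below a mean of 1 CPM and was named after its values were seen. It was at 0.218, 0.257, 0.555 and 0.486 CPM in Hq-WT and at 0.685, 1.03, 1.17 and 1.01 CPM in Hq-mut. Every mutant library was above every wild type at this low level. The fitted log2 fold change of 1.37 (SE 0.30) had an edgeR adjusted p of 0.523, and it was 1.18 to 1.53 when 1 pair was left out. In Aifm1-WT the same gene was at 0.605 to 0.712 CPM, above every Hq-WT library.

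Kcns2, a silent modifier, was at 32.3, 33.4, 28.2 and 38.4 CPM in Hq-WT and at 45.8, 36.2, 35.3 and 54.5 CPM in Hq-mut. It was higher in the mutant in all 4 pairs, although the groups overlapped. Its paired estimate on the log2 scale, 0.34 (SE 0.09), had an edgeR adjusted p of 0.523. Kcna5 was at 1.36, 1.39, 1.02 and 1.17 CPM in Hq-WT and at 3.77, 2.34, 3.73 and 1.18 CPM in Hq-mut. It was thus high in 3 of the mutant libraries and level with its wild type in pair 4. Its log2 fold change was 1.003 (SE 0.29), and 0.68 with the striatum covariate. All 10 striatum markers were on the higher side in Hq-mut too, 4 of them at an unadjusted p under 0.05 with edgeR. The covariate and the genotype thus cannot be fully told apart here either. Hq-mut 1, where Kcna5 was highest, had a striatum marker sum of 367 CPM, and Hq-mut 3 one of 856 CPM.

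Kcnj16, a partner of Kcnj10 in astrocytes, was at 40.3, 26.0, 46.0 and 40.8 CPM in Hq-WT and at 24.6, 28.8, 31.0 and 32.5 CPM in Hq-mut. It was lower in the mutant in 3 of 4 pairs, with a log2 fold change of -0.39 (SE 0.13). Kcnj10 was at 242, 187, 394 and 352 CPM in Hq-WT and at 238, 255, 382 and 391 CPM in Hq-mut. Kcnj10 therefore varied mainly between pairs, as did the astrocyte marker sum, which was lowest in pair 2 (4061 and 4376 CPM). Per kilobase, Kcnj10 was at 4.38, 5.22, 6.23 and 6.28 times the level of Kcnj16 in Hq-WT and at 7.06, 6.45, 8.99 and 8.74 times in Hq-mut. The ratio was higher in the mutant in each pair and the groups did not overlap. In the other line it was 4.98 ± 0.34 (SD, n = 4) in Aifm1-WT and 3.73 ± 1.45 in Aifm1-KI. This ratio was described after its values were seen and was not tested.

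The remaining members with small unadjusted p were Kcng2 (log2 fold change 0.51, SE 0.16), Kcna6 (0.27, SE 0.10), Kcnq5 (0.25, SE 0.09), Kcnk9 (-0.22, SE 0.09), Kcne2 (-1.99, SE 0.60) and Kcne4 (-0.68, SE 0.30). Kcng2 encodes a silent modifier, Kcna6 a Kv1 pore, Kcnq5 a Kv7 pore of the M-current Kcnk9 a two-pore leak channel and Kcne4 a small beta subunit, at 0.385 to 1.39 CPM in these libraries. Kcng2 was higher and Kcnk9 lower in all 4 pairs. Kcne2 was highest in Hq-WT 2, the library with the highest choroid plexus sum, and its counts were too low to be tested without pair 2 and also without pair 3. Of the Kcna6 exons, 2355 bases lie under a gene on the opposite strand.

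**Figure D5:**
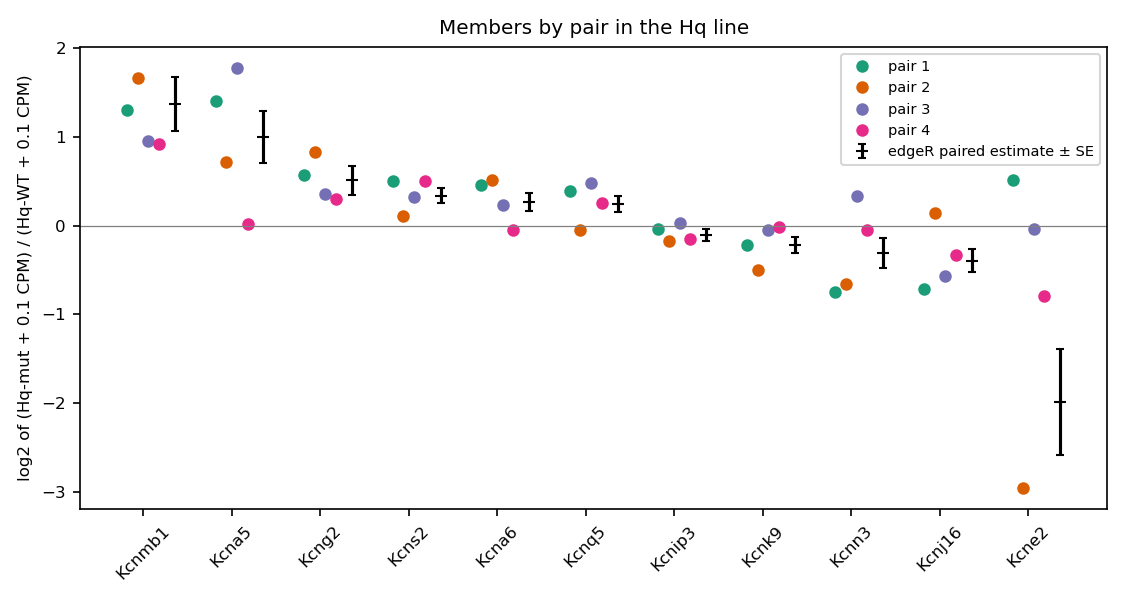
Log2 ratio of Hq-mut to Hq-WT within each of the 4 pairs, after adding 0.1 CPM to both, for the members with the smallest unadjusted p, with edgeR's paired estimate ± SE as a bar. Kcnmb1 lies above 0.9 in every pair, and Kcne2 has 1 pair far below the others.

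The test of whether the mutations' effects differ between the lines called 0 of 80 members with edgeR, against 0.0105% of 19129 genes. At an unadjusted p under 0.05 there were 12 members, 15%, against 10.4% of all genes. DESeq2 and limma-voom called 0 members, among 19 and 2 genes called in all. A positive value means a higher effect in Aifm1-KI than in Hq-mut. The smallest p belonged to Kcnmb4, at -0.69 (SE 0.22, edgeR adjusted p = 0.450), followed by Kcnmb1 at -1.10 (SE 0.37), Kcnd3 at 0.56 (SE 0.19) and Kcnj16 at 0.74 (SE 0.26). For Kcnmb4 the mutant libraries were at 16.6, 9.64, 16.7 and 12.7 CPM in Aifm1-KI and at 22.6, 31.4, 16.9 and 18.0 CPM in Hq-mut.

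A last comparison set Hq-WT against Aifm1-WT. With edgeR, 0 of 77 members had an adjusted p under 0.05, while 0.558% of 18106 genes did. DESeq2 called 6 members (Kcna4, Kcnh1, Kcnh4, Kcnip2, Kcnj11 and Kcnv1) among 421 genes in all, and limma-voom 1, Kcnh4, among 109. At an unadjusted p under 0.05 there were 14 members, 18.2%, against 12.7% of all genes. The groups did not overlap for 12 members, 15.6%, against 7.28% of all genes. Marker lists differed in direction between the same groups. Lower in Hq-WT were all 10 oligodendrocyte (median log2 fold change -0.47), 7 meninges (-1.24), 8 pericyte and smooth muscle (-0.39) and 6 tested liver markers (-5.39). All 10 choroid plexus markers had a higher fitted level in Hq-WT (1.495), but their sum was high mainly in Hq-WT 2, at 5558 CPM. In Hq-WT 1, 3 and 4 the sum was 12.1, 128 and 13.5 CPM, against 37.0 to 389 CPM in Aifm1-WT. The part of these lists in the members' values was not tested.

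Kcnv1, a silent modifier, was at 108, 79.0, 81.3 and 104 CPM in Aifm1-WT and at 146, 146, 115 and 151 CPM in Hq-WT. Kcnh4, an ELK channel that is enriched in striatum, was at 27.8, 28.5, 29.1 and 27.7 CPM in Aifm1-WT and at 16.6, 17.6, 22.8 and 20.9 CPM in Hq-WT. Neither gene overlapped between the groups. The striatum marker sum was higher in Hq-WT, at 281 to 309 CPM against 227 to 277 CPM in Aifm1-WT, while Kcnh4 was lower. The log2 fold changes were 0.58 (SE 0.12) for Kcnv1 and -0.55 (SE 0.11) for Kcnh4, each with an edgeR adjusted p of 0.0561, just above the threshold. Kcnj11, the pore of ATP-sensitive channels, was at 54.5, 54.7, 53.5 and 51.8 CPM in Aifm1-WT and at 32.9, 41.9, 31.3 and 48.7 CPM in Hq-WT (log2 fold change -0.47, SE 0.12, edgeR adjusted p = 0.144).

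Kcnb2, a delayed rectifier pore, was at 60.7, 55.0, 58.5 and 52.1 CPM in Aifm1-WT and at 48.7, 35.3, 42.8 and 45.7 CPM in Hq-WT, with no overlap (log2 fold change -0.40, SE 0.11, edgeR adjusted p = 0.147).

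Lists of genes that work beside the channels were tested in the same fits. Of 22 partners of potassium channels, such as Dpp6, an auxiliary protein of Kv4, 21 were tested in each line and 0 were called with edgeR. In Aifm1-KI 1 of them, Dpp6, had an unadjusted p under 0.05 (log2 fold change 0.34, SE 0.11), and in Hq-mut 4 did. Of all genes, 11.4% in Aifm1-KI and 7.97% in Hq-mut had an unadjusted p under 0.05 with edgeR. Of 10 cyclic nucleotide-gated relatives, 6 were tested and 0 called, with 1 at an unadjusted p under 0.05 in Aifm1-KI (the pacemaker channel Hcn4, 1.40, SE 0.49) and 0 in Hq-mut. Of 17 potassium pumps and cotransporters, 15 were tested in Aifm1-KI and 14 in Hq-mut and 0 called, with 0 and 1 at an unadjusted p under 0.05. DESeq2 and limma-voom also called 0 genes of these lists in both lines. Between Hq-WT and Aifm1-WT, DESeq2 and limma-voom each called 1 of 15 tested pumps and cotransporters, among 421 and 109 genes in all. There edgeR called 0 of the 15.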

How the data were processed

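RNA was measured in 16 libraries in 4 groups of 4, grouped by the genotype in the labels. Per the series' design text, the authors trimmed 51-base single-end reads, mapped them to mm10 with STAR (2.6 per the submitters' processing notes), counted reads per gene with htseq-count and used edgeR. The authors deposited raw counts, as whole numbers for each Ensembl identifier, and 0 columns belonged to other samples. Not given in the sources used here are the HTSeq version, the annotation and the strand setting.

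Symbols, exon lengths and positions came from GENCODE M21 on GRCm38, the assembly of mm10, with 55480 of 55573 rows matched. Promoter sequences came from RefSeq on GRCm38.p6. Comparisons were fitted over all genes with edgeR 4.0.16 in R 4.3.3 (TMM, the default filter by group, quasi-likelihood F-test, Benjamini-Hochberg adjusted p under 0.05), with SE computed as the log2 fold change over the root of the F statistic. Aifm1-KI and wild-type comparisons were unpaired. Hq was paired by replicate number, since same-numbered libraries deviated together (correlations 0.47, 0.55, 0.44 and 0.49 over 16651 genes), a pairing taken from the data and not stated in the labels. The difference of effects was fitted over 16 libraries. Alternatives were RLE size factors, no filter, DESeq2 1.42.0, limma-voom 3.58.1, the block added or dropped, libraries left out and a striatum marker covariate. On simulated counts the tests recovered 67.5% (Aifm1-KI, 18383 genes) and 80.5% (Hq, 17969 genes) of 200 genes changed 2-fold. At 1.5-fold they recovered 49.5% and 52.5%. Counts were drawn gene by gene, without libraries that stand apart across many genes, as some do here. These shares are thus a check of the fits and no estimate of power in these data.

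Named members were the 3 highest per family, up to 5 per direction with the smallest p at a mean of at least 1 CPM, and members fixed for their role as cell type markers or assembly partners. Kcnmb1 and Kcne4 fall outside this rule and were named after their values were seen. Members and lists were chosen with earlier results of these data known. Values of some members by name are not reported here. Of the 93 members, 80 passed the filter in Aifm1-KI and 77 in Hq, and 13 passed in none of the 4 fits. Exons of 26 members are overlapped by genes on the opposite strand and those of 2 on the same strand.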

Additional observations from a re-analysis of the deposited data

Results flagged for a closer look

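Among 58 named members in 4 groups of 4, 14 of 232 sets had 1 library far from the others by the ratio of its gap to the range (Dixon's 95% criterion). Chance gives about 1 in 20 such sets. Kcne2 stood high in Aifm1-KI 2 (16.8 CPM), Hq-WT 2 (7.45 CPM) and Aifm1-WT 4 (3.56 CPM), and Kcnj13 in Aifm1-KI 2 (7.45 CPM) and Hq-WT 2 (8.42 CPM). These are the 3 libraries with the highest choroid plexus marker sums.

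In Hq-WT 3, Kcnv1 was low at 114.7 CPM against 146 to 151 CPM, Kcnj3 at 124.7 CPM against 136 to 139 CPM and Kcnu1 at 2.96 CPM against 3.84 to 3.86 CPM. Hq-WT 2 was low for Kcna1 at 62.8 CPM against 87.3 to 90.6 CPM, and Hq-WT 4 was high for Kcnq5 at 157 CPM against 116 to 120 CPM. In Hq-mut, Kcnab1 was high in library 3 at 124.1 CPM and Kcnk1 in library 2 at 124.6 CPM. In Aifm1-WT, Kcnmb4 was low in library 3 at 16.3 CPM and Kcnt2 in library 4 at 42.6 CPM.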

How the results depend on the processing

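In Aifm1-KI the count of members called was 0 in all settings except DESeq2, which called 1. In Hq-mut it was 0 except without the filter on low counts, which called 5 (Kcna5, Kcne2, Kcnj13, Kcnj16 and Kcnmb1) among 368 genes called in all. The difference of effects gave 0 in every setting. Hq-WT against Aifm1-WT gave 4 without the filter (560 genes called in all), 6 with DESeq2 (421), 1 with limma-voom (109), 1 with the replicate block (Kcnv1; 99) and 0 to 4 when 1 library was left out, against 0 members and 101 genes as reported. The 4 came without Hq-WT 3 (Kcna4, Kcnh1, Kcnh4 and Kcnv1, of 231 genes), while 2 came without Hq-WT 2 (Kcna1 and Kcnj16, of 169) and 1 without Hq-WT 4 (Kcnj11, of 174). The cause was not tested.

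Same-numbered libraries did not deviate together in the Aifm1 line (correlations -0.05 to 0.10), and adding the replicate block there called 0 members, with 27 at an unadjusted p under 0.05 against 18 (33.8% of members and 10.9% of all genes). Dropping the pairing in Hq called 0 members, with 5 at an unadjusted p under 0.05 against 10 (6.49% of members and 2.14% of all genes). The Aifm1 call in Hq-mut and its lack in Aifm1-KI held in each setting run.

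The unadjusted counts also moved with single libraries. Leaving out Aifm1-KI 3 gave 38 in the knock-in comparison (47.5% of members and 20.5% of all genes). In that setting edgeR called 46 genes in all and 0 members, with a lowest member adjusted p of 0.0597. Leaving out Aifm1-KI 2 gave 9 (11.2% of members and 6.87% of all genes). Leaving out Aifm1-WT 1 also gave 9 (11.2% and 7.92%). Without Aifm1-KI 4 or Aifm1-WT 3 there were 10 (12.5% of members, and 7.51% and 7.85% of all genes). Without Aifm1-WT 2 there were 11 (13.8% of members and 8.48% of all genes). Hq-mut had 24 without pair 2 (31.6% of members and 14.9% of all genes), 5 without pair 1 (6.49% and 4.21%) and 6 without pair 3 (7.89% and 4.81%). Of 48 named members followed in Aifm1-KI, the sign changed for 27 with the striatum covariate and for 14 without Aifm1-KI 2 and 4. In Hq-mut it changed for 12 of 47 with that covariate. None of the members whose sign changed was called in either of the fits compared.

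Family shares in CPM without division by length were 57.7% voltage-gated, 12.8% auxiliary, 11.8% inward-rectifier, 6.29% two-pore, 8.12% calcium-activated and 3.29% sodium- or pH-activated. Without the highest member of each family they were 55.5% voltage-gated, 16.6% auxiliary, 18.4% inward-rectifier, 6.15% two-pore, 2.39% calcium-activated and 0.985% sodium- or pH-activated. The count of 0 for Kcne2 in Hq-WT 1 allows up to 0.163 CPM, taking 3 counts as the limit and counting error only.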
